A study of Mus musculus with 6 samples.

Results

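Txnip, the antisense transcript Gm15441 that overlaps it, and the arrestin-domain genes Arrdc1, Arrdc2, Arrdc3 and Arrdc4 were examined in mouse liver RNA-seq. They were taken by name as 6 of the 23284 genes counted. All 6 passed the filter on low counts, as did 12453 genes in all. The family was chosen by the fold changes of Txnip and Gm15441 between these same livers, so the differences between groups are given for the 6 genes as a description and without a p-value.

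All mice were FXR floxed males that received AAV-TBG-Cre, which removes FXR in hepatocytes through the hepatocyte-directed TBG promoter, at 8 weeks of age. The same injection carried a second AAV-TBG vector for FXR, either FXR-WT (3 livers) or Y67F-FXR (3 livers), in which the tyrosine that Src phosphorylates is replaced by phenylalanine. The mice were killed 4 weeks later, when they had eaten chow containing 0.5% cholic acid, a bile acid that activates FXR, for 6 h. Cells other than hepatocytes kept their own FXR gene, and no liver without restored FXR was analysed here.

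TXNIP is an arrestin-domain protein that binds reduced thioredoxin and limits glucose uptake by taking glucose transporters from the cell surface. Its gene is a classical target of ChREBP and MondoA, transcription factors that sense glucose phosphates and bind paired E-boxes together with MLX. Arrdc4 encodes a close relative and is known as another target of these factors. ARRDC1 to ARRDC4 are adaptors that bring NEDD4-family ubiquitin ligases to membrane proteins, ARRDC1 also in budding vesicles and ARRDC3 at adrenergic receptors. Gm15441 is a long non-coding RNA transcribed from the strand opposite to Txnip, and is known to respond to PPARα, the fatty acid sensor of the fasted liver.

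Each library held between 19551113 and 22053320 counted reads. Nr1h4, the gene for FXR, averaged 186 ± 30.2 CPM (reads scaled to a common library size) in the FXR-WT livers and 175 ± 9.84 CPM in the Y67F-FXR livers (mean ± SD, n = 3 each), and the counts do not separate the mouse gene from vector FXR reads that align to it. Of 45 marker genes listed for 7 cell types, 38 were tested. By edgeR's quasi-likelihood test 0 were called and 7 had an unadjusted p under 0.05, all of them lower in Y67F-FXR livers, against 13.4% of all tested genes with such a p. DESeq2 called 3 (S100a8, S100a9 and Lrat), against 3.25% of all genes. The 7 were the neutrophil genes S100a8 (log2 fold change -2.73) and S100a9 (-1.95), the stellate cell genes Acta2 (-1.95), Lrat (-1.15) and Col1a1 (-0.77), the endothelial gene Lyve1 (-0.89) and the hepatocyte gene Fgb (-0.53). The 2 neutrophil genes had few reads, with S100a8 at 1.04 CPM in FXR-WT and 0.151 CPM in Y67F-FXR livers and S100a9 at 2.76 and 0.716 CPM. Acta2 was at 4.34 ± 4.79 CPM in FXR-WT livers (mean ± SD, n = 3), and its groups overlapped. The 8 hepatocyte markers, albumin among them, summed to between 113940 and 131950 CPM in FXR-WT and between 109950 and 131270 CPM in Y67F-FXR livers. Those of Kupffer cells and leukocytes summed to between 154 and 223 CPM in FXR-WT and between 122 and 273 CPM in Y67F-FXR livers, and those of stellate cells to between 201 and 216 and between 147 and 204 CPM. The ranges were 46.0 to 71.1 and 54.1 to 60.6 CPM for cholangiocytes, 144 to 172 and 146 to 157 CPM for endothelial cells, and 80.1 to 89.3 and 86.5 to 114 CPM for erythrocytes. Their part in the results was not tested. The 4 adipocyte markers summed to at most 6.88 CPM in any liver, with leptin at 0 reads, and the globin genes Hba-a1 and Hbb-b1 were at 0 reads in every library. In bulk liver, a change in the number of cells of a type and a change in RNA per cell cannot be told apart.

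Txnip lies on chromosome 3 of mm9 (96361880 to 96365780, plus strand) with 8 exons, and Gm15441 (96359691 to 96370724, minus strand) with 4 exons spans it whole. Exon 3 of Gm15441 runs across the Txnip start. It covers the first 441 bases of Txnip exon 1 and continues for 671 bases before the start. Exon 2 of Gm15441, 165 bases long, lies wholly within Txnip exon 5. Together 606 exon bases belong to both genes, which is 21.6% of the 2801 exon bases of Txnip and 36.2% of the 1673 of Gm15441.

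**Figure D1:**
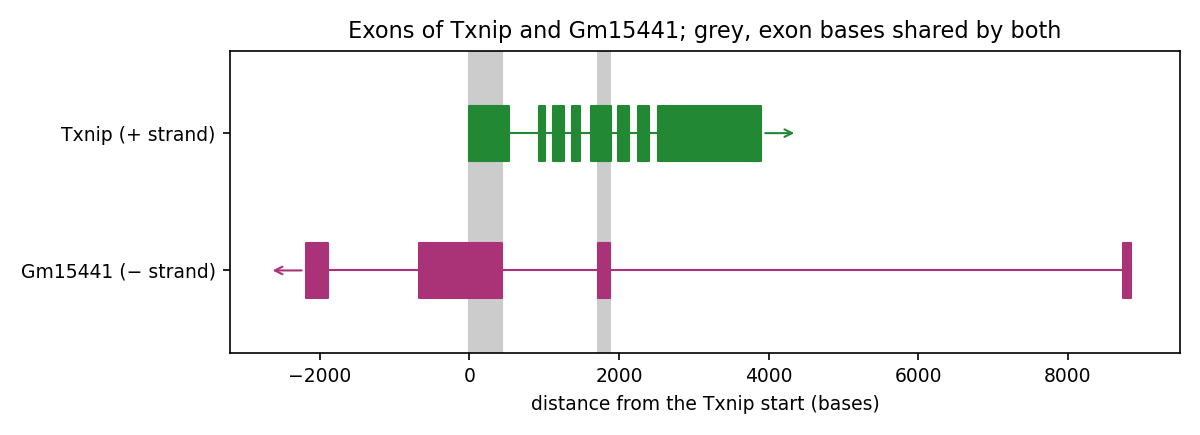
Exon map of the Txnip locus, with the distance from the Txnip start in bases on the horizontal axis, exons as boxes and the direction of transcription as arrows. The 2 grey bands mark the shared stretches of 441 and 165 bases, and the unshared exon bases of Gm15441 all fall outside the Txnip gene.

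The counting used no strand and left out reads that lay on several genes, so a read touching these 606 bases was counted for neither gene. The reads given to Txnip came from 2195 unshared bases, all of them inside introns of Gm15441. Those given to Gm15441 came from 1067 unshared bases, of which 0 lie inside the span of Txnip. Spliced or unspliced Txnip RNA within its annotated span therefore could not add to the Gm15441 counts, whereas unspliced Gm15441 RNA would be counted as Txnip. RNA from unannotated transcripts before the Txnip start and RNA of Gm15441 cannot be told apart. Arrdc1 to Arrdc4 shared 0 exon bases with other genes. The longest run of identical bases between transcripts of any pair among Txnip and the Arrdc genes was 21 bases (Txnip and Arrdc3), against reads of 100 bases.

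The second shared stretch is shown because an antisense exon mirrors Txnip coding sequence over its whole length. It was found by matching GENCODE transcripts of GRCm38 (chr3:96559677-96559842, plus strand, Txnip sense), where it was 166 bases long and all coding, whereas 164 of the 443 bases of the first stretch there were coding. It holds no capitals.
Txnip exon 5 stretch: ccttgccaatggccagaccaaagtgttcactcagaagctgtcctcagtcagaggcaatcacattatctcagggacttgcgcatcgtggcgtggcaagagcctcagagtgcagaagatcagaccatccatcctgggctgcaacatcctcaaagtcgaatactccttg

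The 250 bases before the Txnip start in the mm9 gene models are also exonic in Gm15441, at all 250 positions. This promoter is shown with that of Arrdc4, since these 2 protein-coding members lay higher in every Y67F-FXR liver. Both windows are from RefSeq on GRCm38.p6, for Txnip chr3:96557707-96557956 on the plus strand and for Arrdc4 chr7:68749239-68749488 on the minus strand, each read in the direction of its gene. Capitals mark CCAAT boxes on either strand, perfect E-boxes, and the degenerate E-box pair described with the motif counts.
Txnip promoter: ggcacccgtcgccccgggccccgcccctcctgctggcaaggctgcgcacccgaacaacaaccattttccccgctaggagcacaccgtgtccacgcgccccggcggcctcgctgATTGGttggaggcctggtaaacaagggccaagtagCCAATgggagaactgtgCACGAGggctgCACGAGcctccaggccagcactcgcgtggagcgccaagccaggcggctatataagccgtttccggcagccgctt
Arrdc4 promoter: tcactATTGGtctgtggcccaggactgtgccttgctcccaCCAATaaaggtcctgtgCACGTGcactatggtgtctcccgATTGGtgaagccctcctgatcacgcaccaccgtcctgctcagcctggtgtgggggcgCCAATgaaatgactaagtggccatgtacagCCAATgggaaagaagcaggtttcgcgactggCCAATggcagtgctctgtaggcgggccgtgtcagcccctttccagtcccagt

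The Txnip window held 0 perfect E-boxes (CACGTG) and the Arrdc4 window 1, which began 193 bases before the start. A perfect E-box was present in 6.02% of 32851 mouse promoter windows of the same length. A pair of degenerate E-boxes 5 bases apart (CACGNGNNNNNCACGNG, both strands, a pattern chosen after the sequence was seen) began 85 bases before the Txnip start and occurred in 15 windows, or 0.0457%. CCAAT boxes, the sites of NF-Y, numbered 2 in the Txnip window and 6 in the Arrdc4 window. At least 2 were found in 10.1% of windows and at least 6 in 19 windows, or 0.0578%. The Txnip window also held 1 FOXO element (TGTTTAC, minus strand, 121 bases before the start), present in 3.17% of windows. Neither window held the nuclear receptor element AGGTCA, found in 14.0% of windows, nor the paired forms IR-1 (AGGTCANTGACCT, 0.00609%) and DR-1 (AGGTCANAGGTCA, 0.0335%), nor a TATA box of the form TATAAA (12.4%). Other TATA forms were not searched for, and the Txnip window holds tatataa shortly before the start. The perfect E-box pair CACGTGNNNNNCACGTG was in 0 of the 32851 windows. In the windows of Arrdc1, Arrdc2 and Arrdc3, all of these motifs but CCAAT were without a match, and CCAAT had 3 boxes for Arrdc2, 0 for Arrdc1 and at most 1 in each of the windows of Arrdc3. The promoter table gave windows for 5 of the 6 genes, and that of Gm15441 was not analysed here.

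Txnip was at 35.3, 65.0 and 46.9 CPM in FXR-WT replicates 1 to 3. It was at 201, 164 and 162 CPM in Y67F-FXR replicates 1 to 3. The lowest Y67F-FXR liver stood 1.31 log2 units above the highest FXR-WT liver. The fitted log2 fold change was 1.84 (standard error 0.225), or 3.58-fold. The coefficient of variation was 30.5% among FXR-WT and 12.6% among Y67F-FXR livers.

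Gm15441 had few reads in FXR-WT livers, 41, 69 and 114, against 530, 768 and 378 in Y67F-FXR livers. Scaled, these were 2.00, 3.35 and 4.93 CPM in FXR-WT replicates 1 to 3. In Y67F-FXR replicates 1 to 3 they were 25.8, 41.9 and 18.0 CPM. The groups stood 1.85 log2 units apart at their nearest livers, and the log2 fold change was 3.05 (standard error 0.398). The coefficient of variation was 42.7% among FXR-WT and 42.6% among Y67F-FXR livers. The livers did not follow the order of Txnip, since Gm15441 was highest in Y67F-FXR replicate 2 and Txnip in replicate 1.

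Arrdc4 lies on chromosome 7 of mm9 (75881880 to 75894124, minus strand) with 8 exons. It was at 7.53, 8.44 and 6.91 CPM in FXR-WT replicates 1 to 3 and at 21.3, 18.0 and 18.7 CPM in Y67F-FXR replicates 1 to 3. Every Y67F-FXR liver was higher, and the nearest livers stood 1.08 log2 units apart. The log2 fold change was 1.34 (standard error 0.144), or 2.53-fold.

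Arrdc3, the adaptor known for adrenergic receptors, lies on chromosome 13 of mm9 (81022683 to 81035303, plus strand) with 8 exons. It was at 112, 106 and 121 CPM in FXR-WT replicates 1 to 3. In the Y67F-FXR livers it was at 86.6, 64.0 and 120.4 CPM. Replicates 1 and 2 of Y67F-FXR were below all FXR-WT livers and replicate 3 was among them. The log2 fold change was -0.32 (standard error 0.216). Arrdc2 lies on chromosome 8 of mm9 (73359037 to 73363619, minus strand) with 8 exons. It was at 9.34, 16.5 and 14.6 CPM in FXR-WT and at 11.3, 19.5 and 17.8 CPM in Y67F-FXR replicates 1 to 3. Its groups overlapped, and the log2 fold change was 0.26 (standard error 0.266). It was 0.06 without FXR-WT replicate 1, 0.09 without Y67F-FXR replicate 2 and 0.47 without Y67F-FXR replicate 1. Arrdc1, the member known from budding vesicles, lies on chromosome 2 of mm9 (24780872 to 24790801, minus strand) with 7 exons. It was at 6.65, 5.62 and 4.32 CPM in FXR-WT and at 5.01, 10.1 and 6.16 CPM in Y67F-FXR replicates 1 to 3. Its log2 fold change of 0.36 (standard error 0.289) was 0.01 without Y67F-FXR replicate 2, the liver with the highest value. Arrdc5, a further gene of this family, had 0 reads in every library.

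**Figure D2:**
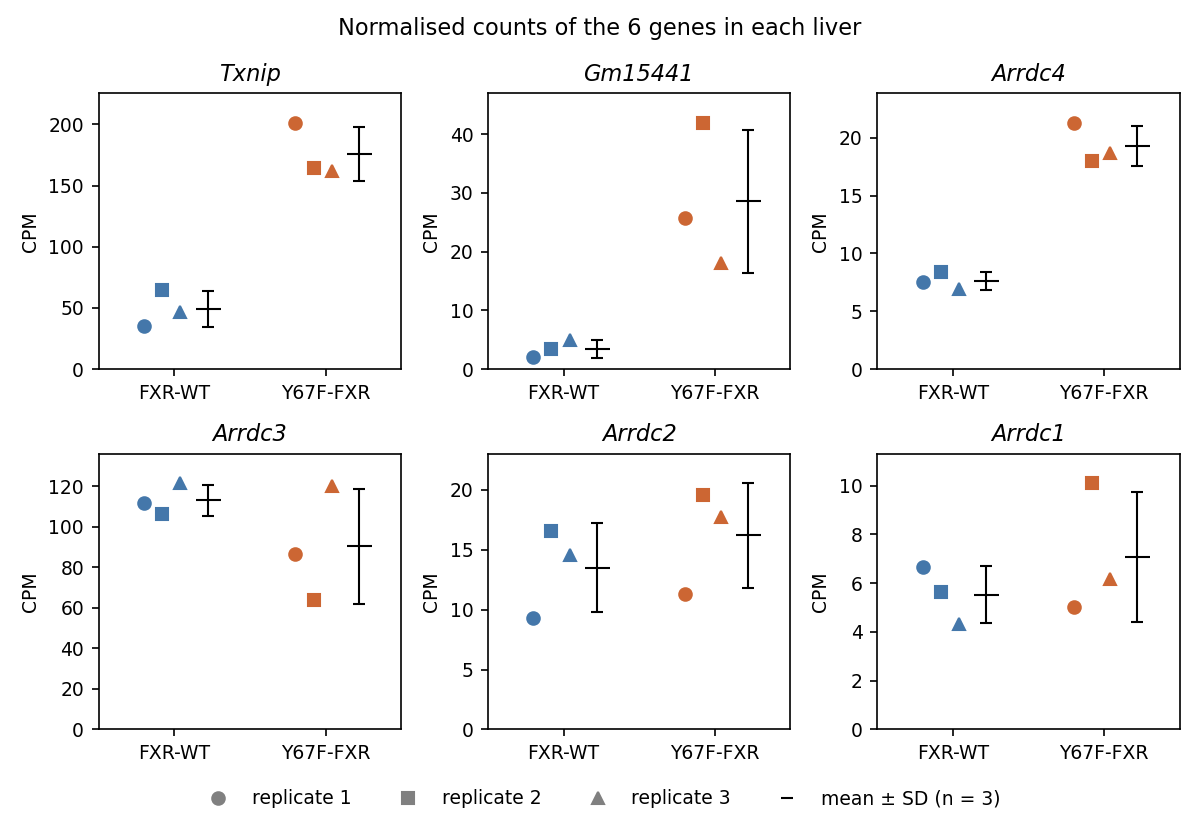
CPM of the 6 genes in each liver on linear axes from 0, with symbols for the replicate number and black bars for the mean ± SD of 3 livers. Txnip, Gm15441 and Arrdc4 lie higher in every Y67F-FXR liver, and the groups overlap for Arrdc3, Arrdc2 and Arrdc1.

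Calls rest on the quasi-likelihood test of edgeR, with a Benjamini-Hochberg adjusted p under 0.05 over all tested genes and a fold above 1.5. By this rule 3 of the 6 members were called, all of them higher (Txnip, Gm15441 and Arrdc4), where 0.972% of all tested genes were called, 0.546% higher and 0.426% lower. The same 3 had groups that did not overlap, as did 20.6% of all tested genes, 10.2% with Y67F-FXR higher and 10.5% with Y67F-FXR lower. Nothing is read from these counts, since the contrast had served to choose the members. With library totals in place of scaling factors, the split of called genes over the whole table changed from 68 higher and 53 lower to 52 higher and 68 lower, and the same 3 members were called. The calls depended on single livers although the sizes moved little. Without FXR-WT replicate 3, 0 members were called, with log2 fold changes of 1.81 for Txnip, 3.41 for Gm15441 and 1.27 for Arrdc4. Without Y67F-FXR replicate 3 only Gm15441 was called, and the log2 fold changes of Txnip and Arrdc4 were 1.90 and 1.37. Without FXR-WT replicate 2 Gm15441 was no longer called, at 3.03. With the replicate number as a block, 0 members were called, and their log2 fold changes were 1.87, 3.04 and 1.34.

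**Figure D3:**
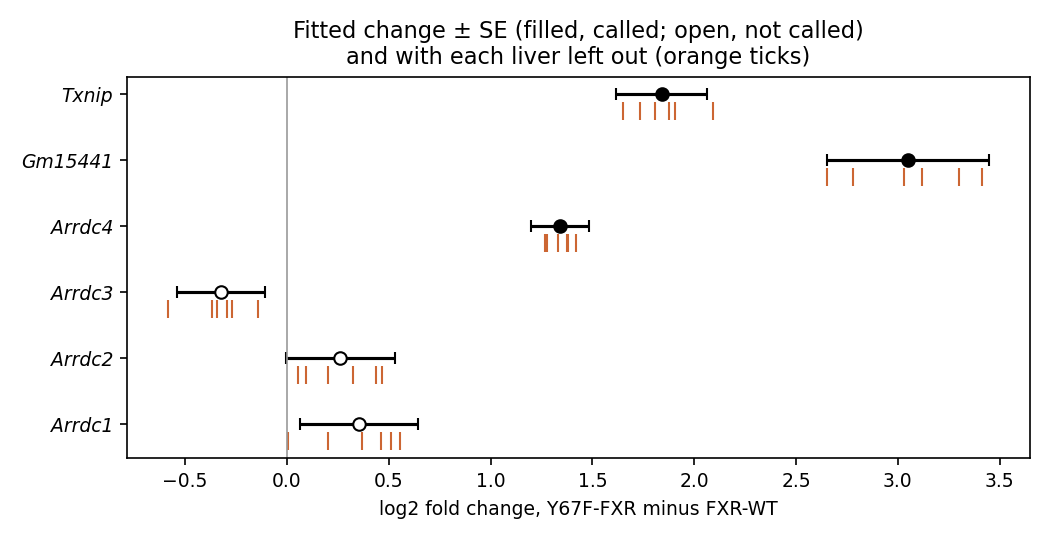
Log2 fold changes of Y67F-FXR against FXR-WT for the 6 genes, with bars of 1 standard error, and orange ticks for the values with each of the 6 livers left out. Those of Txnip (1.65 to 2.09), Gm15441 (2.65 to 3.41) and Arrdc4 (1.27 to 1.42) stay above 1, and those of Arrdc3 (-0.58 to -0.14) stay below 0.

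Levels were compared between genes as CPM per kilobase of exon not shared with another gene. In FXR-WT livers the order was Arrdc3 (27.7), Txnip (22.4), Arrdc2 (5.74), Gm15441 (3.21), Arrdc1 (3.12) and Arrdc4 (1.93). Livers overlapped between Arrdc3 and Txnip, between Arrdc2 and Gm15441 and between Gm15441 and Arrdc1, whereas Txnip was above Arrdc2 and Arrdc4 was below Arrdc1 in every liver. In Y67F-FXR livers the order was Txnip (80.1), Gm15441 (26.8), Arrdc3 (22.1), Arrdc2 (6.90), Arrdc4 (4.88) and Arrdc1 (4.00). Txnip was above Gm15441 in all livers, the livers of Gm15441 and Arrdc3 overlapped, and so did those of Arrdc2, Arrdc4 and Arrdc1. Among tested genes with at least 200 unshared exon bases, the mean level of Txnip was at percentile 80.1 in FXR-WT and 92.4 in Y67F-FXR livers. That of Gm15441 was at percentile 42.8 and 82.8, and that of Arrdc4 at 32.9 and 51.2. With the whole exon length in place of the unshared part, Gm15441 in Y67F-FXR livers was at 17.1 CPM per kilobase, below Arrdc3 at 22.1. In FXR-WT livers it was then at 2.05, below Arrdc1 at 3.12. Per kilobase of positions that hold a whole read, Arrdc1 was above Gm15441 in FXR-WT livers (4.91 and 4.45) and above Arrdc4 in Y67F-FXR livers (6.29 and 6.05).

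Within the locus, Gm15441 per kilobase was 11.7%, 10.6% and 21.6% of Txnip in FXR-WT replicates 1 to 3. In Y67F-FXR replicates 1 to 3 it was 26.3%, 52.4% and 23.0% of Txnip. Every Y67F-FXR liver was above every FXR-WT liver, but replicate 3 of each group lay close together. The log2 ratio was -2.85 ± 0.558 for FXR-WT and -1.66 ± 0.638 for Y67F-FXR (mean ± SD, n = 3 each). The log2 ratio of Arrdc4 to Txnip per kilobase was -3.50 ± 0.371 for FXR-WT and -4.03 ± 0.0635 for Y67F-FXR (mean ± SD, n = 3 each), lower in every Y67F-FXR liver. These ratios come from the same contrast by which the genes were chosen, so they were not tested.

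The nearest counted genes on either side of Txnip were also examined. Hfe2, which encodes hemojuvelin of the iron-hepcidin pathway and ends 28741 bases before the Txnip start, averaged 116 ± 3.32 CPM with FXR-WT and 103 ± 9.76 CPM with Y67F-FXR (± SD, n = 3 each). The fitted difference was -0.17 on the log2 scale (standard error 0.118). Hfe2 was not called, although its Y67F-FXR livers were all below its FXR-WT livers. Polr3gl, for a subunit of RNA polymerase III, lies 16017 bases beyond the Txnip end and had a log2 fold change of -0.05 (standard error 0.160). That of Lix1l was -0.01 (standard error 0.190). BC107364, Terc and Ankrd34a had at most 2 reads in any library and were not tested.

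Genes with a pattern like that of Txnip were sought among 11513 tested genes of at least 1 CPM on average. Likeness was measured as the root mean square difference of log2 CPM over the 6 livers after centring each gene on its own mean. It therefore holds the group difference by which Txnip and Gm15441 were chosen, and ranks genes of similar fold change high. Shared regulation was not tested. The 5 genes most like Txnip were the fatty acid elongase gene Elovl3 (0.191), the transcriptional repressor gene Bcl6 (0.212), the Myc family gene Mycl1 (0.224), and the mitochondrial carriers Slc25a34 (0.229) and Slc25a47 (0.270). Elovl3 averaged 34.6 ± 11.8 CPM with FXR-WT and 103 ± 3.96 CPM with Y67F-FXR (± SD, n = 3 each), and Slc25a47 averaged 383 ± 99.7 and 1128 ± 197 CPM. The 5 had log2 fold changes from 1.49 to 1.80, against 1.84 for Txnip. Arrdc4 ranked 24 in likeness to Txnip (0.348), and Gm15441, with its larger fold change, ranked 545 (0.752). The 5 genes most like Gm15441 were 2410018M08Rik (0.536), the acyl-CoA thioesterase Acot3 (0.617), the aspartate aminotransferase Got1 (0.624), the lipid droplet protein Plin4 (0.641) and G6pc (0.681), the catalytic subunit of glucose 6-phosphatase. Txnip ranked 9 in that order and Arrdc4 ranked 49. Elovl3 and Plin4 share 9 and 6 exon bases with a neighbouring gene.

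Of 134 tested genes linked to these members by lists of known function, 5 were called, all of them higher in Y67F-FXR livers, where 0.972% of all 12453 tested genes were called and 0.546% were called higher. The lists were chosen with earlier results of these data known, so their counts are a description beside these shares. DESeq2 called 3.25% of the 12916 genes to which it gave an adjusted p, and edgeR with a gene length offset called 1.98% of 12453. Over all genes tested by edgeR, 52.0% were fitted higher, 13.4% had an unadjusted p under 0.05 and the median log2 fold change was 0.01. In the list of ChREBP, MondoA and their targets, 16 of 24 tested genes were fitted higher, and the median on the log2 scale was 0.22. An unadjusted p under 0.05 was found for 12 of the 24. The groups did not overlap for 9 genes with Y67F-FXR higher and for 5 with Y67F-FXR lower, against 10.2% and 10.5% of all tested genes. The 5 were the factor genes Mlxipl and Mlx, the hepatokine gene Fgf21 (log2 fold change -1.64), the fatty acid synthase gene Fasn (-0.43) and the elongase gene Elovl6 (-0.25), named after their values were seen, and none of them was called. Only G6pc of this list was called, with 32.5 ± 19.6 CPM for FXR-WT and 348 ± 106 CPM for Y67F-FXR (± SD, n = 3 each), a log2 fold change of 3.42 (standard error 0.475). G6pc was no longer called without FXR-WT replicate 3, Y67F-FXR replicate 1 or Y67F-FXR replicate 3, nor with the replicate number as a block. DESeq2 called G6pc and Klf10. Klf10 (1.41) and Dak (0.45), the latter for a kinase of fructose breakdown, followed, with Benjamini-Hochberg adjusted p of 0.10 and 0.140 by edgeR (quasi-likelihood test). The factor genes were named for their role, after their values were seen. Their log2 fold changes were -0.52 (standard error 0.18) for Mlxipl, the ChREBP gene, -0.36 (standard error 0.122) for Mlx and 0.30 (standard error 0.206) for Mlxip, the MondoA gene. None of the 3 was called by edgeR (quasi-likelihood test, Benjamini-Hochberg adjusted p from 0.238 to 0.615), and Mlxip had overlapping groups.

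In the list of PPARα and its targets, 29 of 29 tested genes were fitted higher, and the median on the log2 scale was 0.49. Fgf21, also known as a target of PPARα, was listed only with ChREBP and MondoA. It was lower in every Y67F-FXR liver (-1.64) and was not called. The groups did not overlap, with Y67F-FXR higher, for 19 of the 29, against 10.2% of all tested genes, and 19 had an unadjusted p under 0.05. Nothing is read from these shares, since the list was chosen with earlier results of these data known. The 4 called were the thioesterases Acot1 (1.399, standard error 0.149) and Acot2 (1.25, standard error 0.187), the peroxisomal thiolase Acaa1b (0.93, standard error 0.115) and the lipid droplet protein Plin2 (0.85, standard error 0.135). Acaa1b averaged 1209 ± 25.1 CPM with FXR-WT and 2298 ± 117 CPM with Y67F-FXR (± SD, n = 3 each). Acot1 and Acot2 transcripts share a run of 273 identical bases and Acaa1b and Acaa1a one of 327 bases, longer than a read, so the counts of each hold only the reads that tell the copies apart. By DESeq2, 11 of the 29 were called, against 3.25% of all genes. Ppara, named for its role after values were seen, had a log2 fold change of 0.58 (standard error 0.202) and was not called. The number called was 5 without FXR-WT replicate 1 (Acot3 and Angptl4 gained, Plin2 lost), 0 without FXR-WT replicate 3, 1 without FXR-WT replicate 2, 1 without Y67F-FXR replicate 1, 2 without Y67F-FXR replicate 2 and 1 without Y67F-FXR replicate 3, and 0 with the replicate number as a block. At least 28 of the 29 were fitted higher with any liver left out.

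Of 19 tested factors and targets of FOXO and the glucocorticoid receptor, 14 were fitted higher, 6 had an unadjusted p under 0.05, the groups did not overlap for 5 with Y67F-FXR higher and for 0 with Y67F-FXR lower, the median on the log2 scale was 0.39, and edgeR called G6pc alone. DESeq2 called 4 of the 19 (G6pc, Pck1, Klf15 and Irs2), against 3.25% of all genes, and edgeR with a gene length offset called 3 (G6pc, Pck1 and Klf15), against 1.98%. The median was 0.21 without Y67F-FXR replicate 1 and 0.24 without FXR-WT replicate 1. Klf15, a transcription factor of the fasted liver, and Pck1, the gluconeogenic PEP carboxykinase, had log2 fold changes of 0.67 and 1.09, with Benjamini-Hochberg adjusted p of 0.0704 and 0.0872 by edgeR (quasi-likelihood test). Pck1 averaged 1932 ± 616 CPM with FXR-WT and 4120.3 ± 588 CPM with Y67F-FXR (± SD, n = 3 each). Foxo1 (0.36, standard error 0.170) and the receptor gene Nr3c1 (-0.27, standard error 0.145), named for their role after values were seen, were not called.

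The lists closest to the proteins themselves held 0 called genes. The sign of the medians of the first 2 lists was not stable, with -0.02 for each when library totals replaced the scaling factors. Without Y67F-FXR replicates 1 and 2 in turn, these medians were 0.17 and -0.07 for the thioredoxin system and -0.05 and 0.10 for the NEDD4 list. In the thioredoxin system, 0 of 27 tested genes were called by edgeR or by DESeq2 and 3 had an unadjusted p under 0.05, and the median on the log2 scale was 0.04. The 3 with the smallest p were Txndc9 (-0.34) and Txnl1 (-0.31), thioredoxin-like proteins, and the methionine sulfoxide reductase Msra (0.31), with Benjamini-Hochberg adjusted p between 0.303 and 0.316 by edgeR (quasi-likelihood test). Txn1, for the thioredoxin that TXNIP binds, averaged 191 ± 27.8 CPM with FXR-WT and 190.3 ± 38.4 CPM with Y67F-FXR (± SD, n = 3 each), a log2 fold change of -0.01 (standard error 0.179). Among NEDD4-family ligases, their adaptors and other arrestins, 0 of 19 tested genes were called by either tool and 1 had an unadjusted p under 0.05, with a median of 0.05. This list was led by Nedd4l (0.34), the β-arrestin gene Arrb1 (0.33) and the retromer subunit gene Vps26b (-0.14). Among cargos, partners and inflammasome genes, 0 of 17 tested genes were called by either tool and 1 had an unadjusted p under 0.05, with a median of -0.09, which was between -0.15 and -0.05 with 1 liver left out. It was led by Map3k5 (0.35), for the kinase ASK1 that thioredoxin binds, the insulin receptor gene Insr (0.29) and the integrin gene Itgb4 (-0.64). Of the list genes named, Mlx, Vps26b and Itgb4 share exon bases with a neighbouring gene, 67, 586 and 55 bases.

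**Figure D4:**
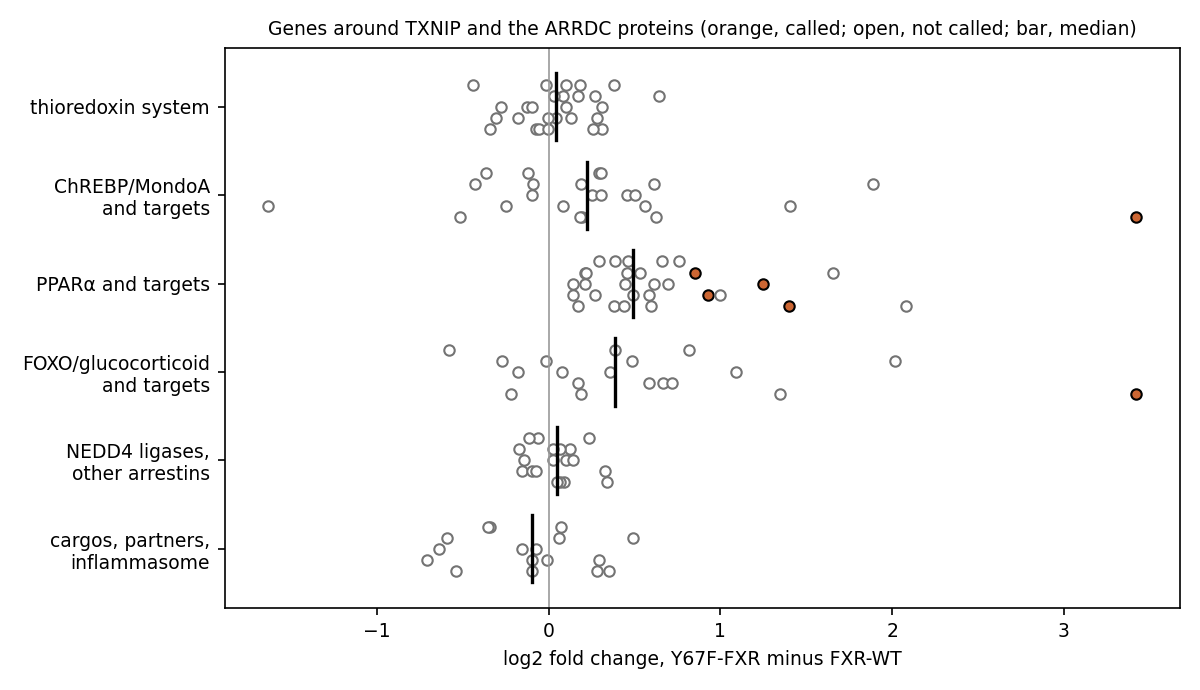
Log2 fold changes of Y67F-FXR against FXR-WT for each tested gene of the 6 lists, with a black bar at the list median. All 29 genes of the PPARα list, which does not hold Fgf21, lie above 0. The called genes are 4 in that list and G6pc, which is in the ChREBP/MondoA and the FOXO/glucocorticoid lists.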

How the data were processed

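Liver RNA from 6 mice, 3 with FXR-WT and 3 with Y67F-FXR, was sequenced as paired 100-base reads, 1 library per liver. Per the file headers, the authors made gene counts with featureCounts (1.4.6-p4), using mm9 gene models from UCSC, after STAR alignment (2.5.3a in the submitters’ processing notes). Counting ignored strand, took each mate by itself and dropped reads on more than 1 gene or place. The deposited counts were not normalized, and summed to 19551113 to 22053320 reads per library. A deposited table of the authors’ own fold changes, p-values and false discovery rates was not used.

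In R 4.3.3, genes were filtered (filterByExpr), scaled (TMM) and tested (glmQLFit, glmQLFTest) with edgeR 4.0.16. DESeq2 1.42.0 was an alternative, and the scripts were tested on simulated data. CPM use the scaled totals, log2 CPM a prior count of 2, and standard errors the F statistic. The p-values measure the spread between livers, which were fitted as unpaired. The alternatives were other scaling, filters, a gene length offset (loess span 0.3), the replicate number as a block, and each liver left out. Members, lists and alternatives were chosen with earlier results of these data known. The genes named are the 6 members, Arrdc5, Nr1h4, the chromosomal neighbours of Txnip, cell type markers, and the 5 most like Txnip or Gm15441. From each list they are the called genes, the 3 with the smallest p and some genes called only in alternative fits. Mlxipl, Mlx, Mlxip, Fgf21, Fasn, Elovl6, Ppara, Foxo1, Nr3c1, Txn1 and the degenerate E-box pair were added after values or sequence were seen. Promoters are from RefSeq (GRCm38.p6) and transcripts from GENCODE (GRCm38), since no mm9 genome was used here. Protein motifs were not analysed here.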

Additional observations from a re-analysis of the deposited data

How the results depend on the processing

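Other scaling factors, library totals, DESeq2, filters on low counts and offsets for gene length left Txnip, Gm15441 and Arrdc4 called and the other 3 members not called. The contrast had served to choose the members, so these calls are a description and nothing is read from their persistence. With the replicate number as a block, the log2 fold changes of Txnip (1.87), Gm15441 (3.04) and Arrdc4 (1.34) were no longer called, 8 genes were called in place of 121, and 0 pathway genes in place of 5. No pairing of livers by number is described. Deviations from the group means correlated at -0.517, -0.0804 and 0.121 for numbers 1 to 3, and at -0.586 to 0.578 between livers of different number. Such correlations depend on one another with 3 livers per group, so they cannot decide whether the numbers pair livers. With DESeq2 420 genes and 16 pathway genes were called, and with gene length offsets 247 and 9. With 1 liver left out, 9 to 66 genes and 0 to 6 pathway genes were called. The log2 fold change then ranged from 1.65 to 2.09 for Txnip, from 2.65 to 3.41 for Gm15441 and from 1.27 to 1.42 for Arrdc4, and each lost its call in 2 of these 6 fits, which have fewer livers. None of the 6 members changed direction under any alternative run. Mean levels over the livers moved by more than the SD pooled over both groups when positions that hold a whole read within an exon replaced unshared bases, from 51.2 to 77.9 CPM per kilobase for Txnip, 3.56 to 5.60 for Arrdc1, 6.32 to 9.35 for Arrdc2, 24.9 to 30.7 for Arrdc3 and 3.41 to 4.22 for Arrdc4. For Arrdc3 the move was smaller than the SD of the Y67F-FXR livers alone (6.94). With the whole exon length Txnip was at 40.1. Gm15441 had 41 reads in its lowest library.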
